A study of Mus musculus with 4 samples.

Results

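The cells described here were chosen by 3 contractile genes of smooth muscle, Myh11, Acta2 and Cnn1, in Xenium in situ sections of mouse dorsal skin and buccal mucosa. A cell was a member when it held at least 10 transcripts, and at least 5 of them were Myh11, Acta2 or Cnn1 together. The rule found 5439 member cells among 426398 cells in 17 sections, which is 1.28% of the cells. Because the rule used these 3 genes, their levels in member cells are given only as a description.

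Smooth muscle cells surround arteries and veins, form the arrector pili muscles that pull on hair follicles, and wrap glands as related contractile cells. Their force comes from a smooth muscle myosin, whose heavy chain is Myh11, acting on filaments of smooth muscle actin, Acta2, with calponin, Cnn1, bound to the actin. Pericytes share part of this machinery but sit singly on capillaries, where they receive platelet-derived growth factor from the endothelium through the receptor Pdgfrb. Activated fibroblasts of wounds (myofibroblasts) and the myoepithelial cells of salivary glands also make Acta2, so the rule can take them in.

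The mice carried both a TRE-Pitx1 and a Krt5-rtTA transgene, so that doxycycline in the food turned on the transcription factor PITX1 in keratinocytes, the cells with Krt5 promoter activity. Littermates with the same 2 transgenes on normal food were the Control mice, and the buccal mucosa came from Control mice of both sexes. There were 3 unwounded Control skin sections (1 male, 2 female), 4 unwounded PITX1+ skin sections (2 male, 2 female), 7 buccal sections, and 3 sections of male skin 4 days after wounding (1 Control, 2 PITX1+). Male skin, female skin, buccal mucosa and wounds each lay on a slide of their own, so slide cannot be told apart from sex, tissue or wounding. The labels name slides and not sections. Each section was matched to its condition by its place on the slide, and the mice behind the sections are not named.

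Several sections stood apart before any comparison. In keratinocyte marker cells, Pitx1 stood at 15.7 CPM (transcript counts scaled to one fixed total) in the male Control section and at 1119 and 864 in the male PITX1+ sections. On the female slide it was 55.2 and 55.3 CPM in the Control sections and 40.8 and 76.4 in the sections matched to PITX1+ skin, so no rise was seen there. In the wounds it was 56.9 CPM in the Control section and 632 and 310 in the PITX1+ sections. The PITX1+ tests pooled both slides. The fits across genes had slide or section as a term, and the permutation tests on shares, densities and nearness had neither. The match of sections to conditions rests on their order on each slide, and whether the probe reads the transgene is not given in the sources used here. Depth also differed, with a median of 26 to 32 transcripts per cell in Control skin, 37 to 87 in PITX1+ skin, 41 to 125 in buccal mucosa and 58 to 62 in wounds. The buccal section numbered 6 held salivary keratins in its member cells, described further on.

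The rule genes split the sections by slide. Myh11 made up 76.0% to 78.4% of the rule transcripts of member cells in the 4 female sections, but 27.8% to 35.0% in the 3 unwounded male sections, 31.9% to 39.9% in the 7 buccal sections and 20.9% to 30.1% in the 3 wounds. Acta2 showed the opposite order. Acta2 transcripts numbered 0.140 and 0.155 per Myh11 transcript in the female Control sections, and 0.180 and 0.246 in the female PITX1+ sections. The male Control section had 1.54, the male PITX1+ sections 2.38 and 1.70, the buccal sections 1.35 to 1.81 with a median of 1.60, and the wounds 2.12, 3.19 and 3.62. No female section overlapped any other section. Each ratio depends on the probes of both genes and can only be read between sections.

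**Figure D1:**
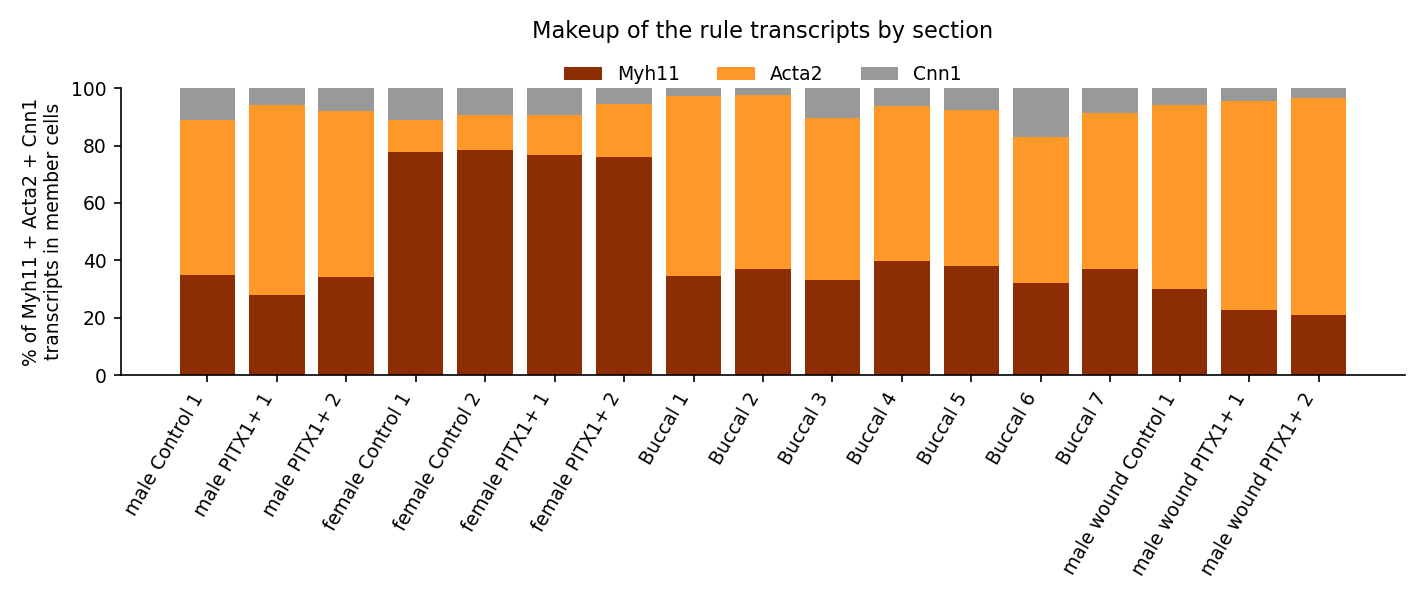
Makeup of the rule transcripts in member cells of the 17 sections. Each bar is 1 section, and its parts are the percentages of Myh11, Acta2 and Cnn1 among the transcripts that chose the cells. The 4 female bars are mostly Myh11 (76.0% to 78.4%), and Acta2 is the largest part of the other 13.

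The same split was seen cell by cell. In the female Control sections, 0.571% and 1.57% of member cells held more Acta2 than Myh11 transcripts, and 36.0% and 31.8% held no Acta2 at all. In the unwounded male sections 59.2% to 82.3% of member cells were Acta2-led, and at most 0.971% lacked Acta2. Cnn1 was sparse throughout, from 0.250 to 1.81 transcripts per member cell, with the highest value in the sixth buccal section. The median area of member cells was 329 and 399 µm² in the female Control sections and 262 µm² in the male one. It was 178 and 195 µm² in the female and 178 and 225 µm² in the male PITX1+ sections, and 99.7 to 150 µm² in buccal mucosa. The median area of the other cells was 194 to 230 µm² in Control skin, 79.4 to 126 µm² in PITX1+ skin and 99.4 to 274 µm² in buccal mucosa. Since only 1 slide held female skin, sex and slide cannot be told apart.

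The part of the signal of these genes that the rule caught varied between sections. Member cells held 48.2% to 64.9% of all Myh11 transcripts of the Control sections, 57.3% and 72.3% in the male PITX1+ sections, and 61.8% to 76.6% in buccal mucosa. In the female PITX1+ sections they held only 12.1% and 21.2% of Myh11, and 4.52% and 12.2% of Acta2. In the Control wound they held 64.7% of Myh11 and 47.0% of Acta2. The PITX1+ wounds had 47.5% and 38.9% of Myh11, and 31.2% and 21.9% of Acta2, in member cells. For Acta2 the shares were 47.3% to 66.9% in unwounded Control skin, 30.8% and 55.3% in the male PITX1+ sections and 62.9% to 80.5% in buccal mucosa. The threshold cut a continuous range. Over all sections, 1758 cells had 4 rule transcripts and 1098 had 5, with median depths of 82 and 81 transcripts, and 68.7% and 71.3% of them lay near endothelial marker cells as defined below.

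The label was set against genes that the rule did not use. Levels are given in CPM of the 325 other panel genes, summed over the member cells of a section, and member cells are compared with the other cells of the same section as a description. Pdgfrb, the pericyte receptor, was higher in member cells in all 14 unwounded sections, with a median log2 ratio of 2.45. Itga1, an integrin subunit of smooth muscle and pericytes, was higher in all 14 with a median log2 ratio of 2.87, and so was Palld, an actin-binding protein, with 2.24. Abcc9, a channel subunit of pericytes and muscle, was higher in 11 of the 14, with a median log2 ratio of 0.76. Desmin, Des, the intermediate filament of muscle, was higher in 7 of the 14 and had a median log2 ratio of -0.01. Des thus did not set member cells apart from other cells, and which other cells held it was not tested. Levels of pericyte genes were uneven between sections. The 4 genes of the pericyte list summed to 96898 CPM in male Control member cells, and to 23026 and 19102 in female ones. In PITX1+ skin the sums were 91978 and 77741 CPM in male sections, and 55264 and 50184 in female ones. Pdgfrb alone ranged from 4988 to 15288 CPM over the Control sections. Whether the label holds equally in all sections was not tested.

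Vwf, a clotting protein stored by endothelium, had the largest median log2 ratio, 3.36, followed by the growth factor Igf2 with 3.19. Lbh, a transcriptional cofactor, had 2.97, Pecam1, an adhesion molecule of endothelium, 2.62, and Tgfb3, a TGF-beta ligand, 2.22. Each of these was higher in member cells in all 14 unwounded sections. The keratinocyte genes Krt5, Krt17 and Trp63 were lower in member cells in every one of the 14. Between 4.86% and 65.5% of a section's member cells themselves met the threshold for an endothelial marker cell, while 0% to 14.7% met that for a keratinocyte marker cell. The part of neighbouring cells in these levels was not tested.

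Member cells were a small share of most sections. They made up 0.812% of the cells of the male Control section, and 2.02% and 2.17% of the female Control sections. The male PITX1+ sections had 0.960% and 2.46%, and the female PITX1+ sections 0.142% and 0.320%. On the male slide both PITX1+ sections lay above the Control section, and on the female slide both lay below the Control sections. Among cells with at least 30 transcripts, each thinned to 30, the shares were 0.283% and 0.800% in the male PITX1+ sections and 0.674% in the male Control section, so the order of the first turned. PITX1+ and Control sections differed by -0.70 percentage points (means 0.970% ± 1.05, SD, n = 4, and 1.67% ± 0.743, SD, n = 3; 2-sided exact permutation test, p = 0.4, adjusted p = 0.45 over the 9 tests on sections, where 0.0571 is the smallest p possible). After thinning the difference was -1.18 percentage points (exact p = 0.114).

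Buccal sections held more member cells per area under the rule used. Their share ran from 2.04% to 9.60% with a median of 2.88%, against 0.812% to 2.17% in Control skin (exact permutation test, p = 0.0667, adjusted p = 0.1). Their density ran from 77.8 to 553 member cells per mm² with a median of 126, and every buccal section lay above the densest Control section, at 58.2. The mean density was 188 ± 168 (SD, n = 7) in buccal mucosa and 41.6 ± 20.2 (SD, n = 3) in Control skin (exact permutation test, p = 0.0167, the smallest this design allows, and 0.05 after Benjamini-Hochberg adjustment over the 9 tests). Without the sixth buccal section the mean density was 128 ± 52.3 (SD, n = 6; exact p = 0.0238), and the difference fell from 147 to 86.0 cells per mm². Counting only cells with at least 30 transcripts and thinning each to 30, the difference was 46.7 cells per mm² (exact permutation p = 0.05), and the share in buccal mucosa exceeded that in Control skin by 0.23 percentage points (exact p = 0.75). Where the rule genes also had to be at least 20% of a cell's transcripts, the density difference was 23.1 cells per mm² (exact p = 0.367) and the share difference -0.11 percentage points. Thinning leaves out 45.5% to 56.7% of the cells in Control sections and 5.80% to 35.2% in buccal sections.

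Densities in PITX1+ skin followed the slides. They were 48.8 and 98.2 member cells per mm² in the male sections against 19.2 in the male Control section, and 8.34 and 20.4 in the female sections against 58.2 and 47.5 in their Controls. Pooled over slides the means differed by 2.29 cells per mm² (exact permutation test, p = 0.914). Without the second male PITX1+ section the difference was -15.8, and without the male Control section -8.94. It was -19.8 with a rule share of 20%, -7.43 after thinning and -0.36 with at least 10 rule transcripts. In the wounds, 1.64% of cells were members in the Control section (95% exact binomial interval, 1.46% to 1.83%), and 1.04% (0.945% to 1.15%) and 0.641% (0.582% to 0.704%) in the PITX1+ sections. These intervals cover counting error only, and with 1 Control wound no test between conditions was made.

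**Figure D2:**
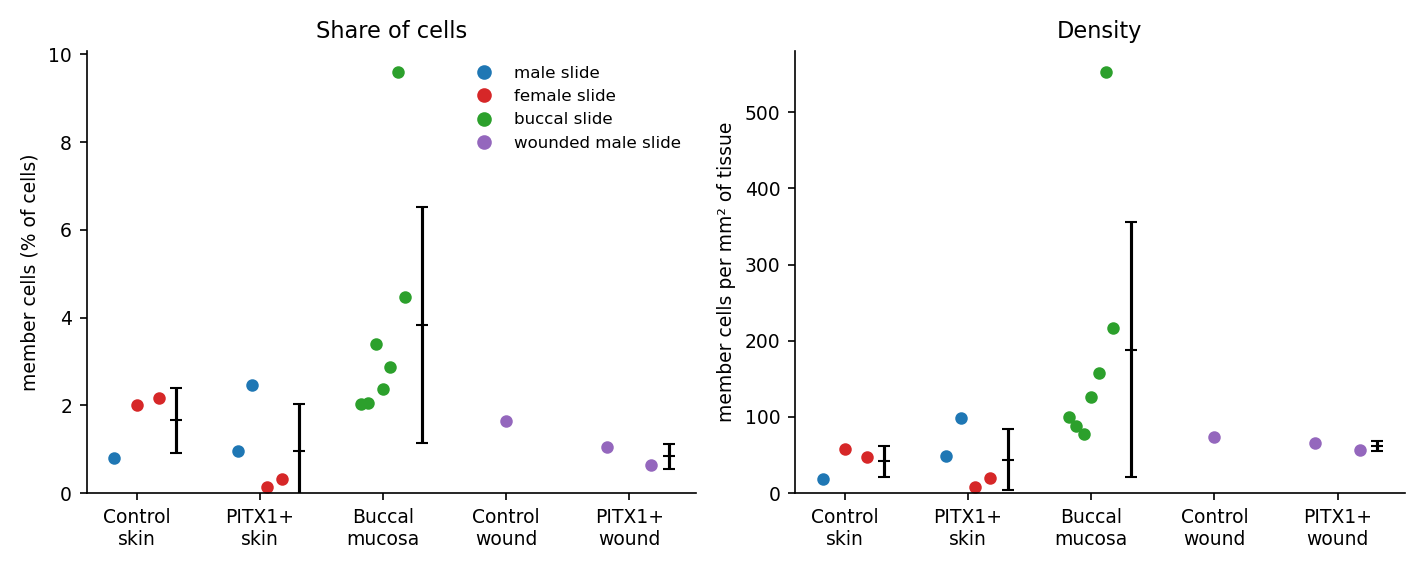
Member cells as a percentage of cells (left) and per mm² of tissue (right). Points are sections, coloured by slide, and black bars give the mean ± SD of groups with more than 1 section, cut at 0. The 7 buccal sections lie at or above 77.8 cells per mm², and, without thinning, the male PITX1+ sections lie above and the female ones below their Control sections.

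Member cells lay close to endothelium. A cell was called near when another cell within 25 µm held at least 3 transcripts of the endothelial genes Pecam1, Cdh5, Flt1 and Vwf. In the measure of nearness to endothelium, other cells were those that were neither members nor endothelial marker cells. Member cells that were themselves endothelial marker cells were kept, so the 2 sides were not chosen alike. The share of member cells near such cells was higher than that of other cells in 14 of 14 unwounded sections, on average 69.7% against 38.9%. The mean difference was 30.8 percentage points (2-sided exact sign-flip permutation test over the 14 sections, p = 0.000122, the smallest possible, adjusted p = 0.00110). With member cells that were themselves endothelial marker cells left out, the mean difference was 28.2 percentage points. The size of the difference varied. In the female Control sections 16.6% and 9.02% of member cells were near, against 11.9% and 4.83% of other cells, while the male Control section had 39.8% against 10.5%.

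Nearness to endothelium differed between tissues. It reached 89.7% to 97.9% of member cells in the 7 buccal sections, with no overlap with Control skin (difference of means 73.5 percentage points, exact permutation p = 0.0167, adjusted p = 0.05). Without any 1 Control section the smallest p the design allows is 0.0556. In PITX1+ skin it was 67.0% and 59.4% in the male sections and 45.7% and 70.5% in the female sections, each above all 3 Control sections. The difference of 38.9 percentage points had p = 0.0571 in the exact permutation test, the smallest this design can give (adjusted p = 0.1). Endothelial marker cells also made up more of these sections, at 4.31% to 7.07% of all cells in PITX1+ skin and 8.83% to 22.6% in buccal mucosa, against 1.29% to 3.17% in Control skin. Other cells moved the same way, with 27.6% to 33.6% near in PITX1+ skin and 4.83% to 11.9% in Control skin. Neither depth nor the number of cells per area was set equal for this measure. Median depth was 26 to 32 transcripts per cell in Control skin, 37 to 87 in PITX1+ skin and 41 to 125 in buccal mucosa. A deeper cell meets a threshold of 3 transcripts more readily, and the part of depth was not tested. In the wounds 61.2%, 69.9% and 82.8% of member cells were near.

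**Figure D3:**
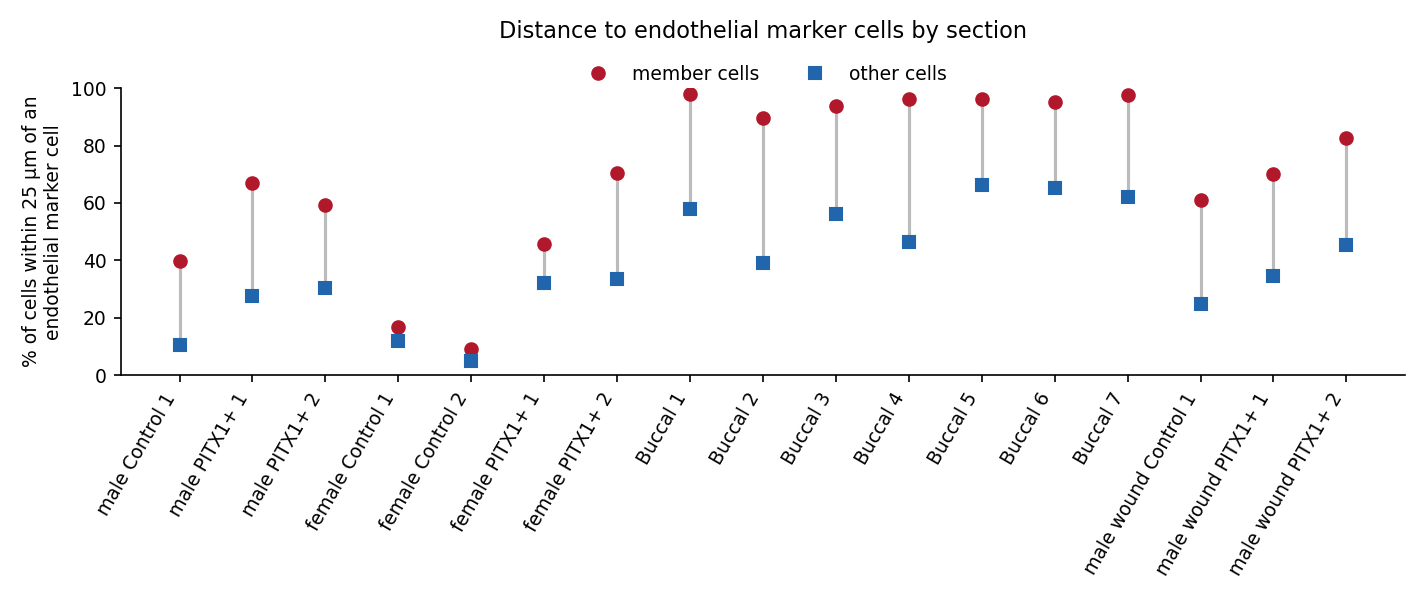
Percentage of cells within 25 µm of another cell with at least 3 endothelial transcripts, for member cells (circles) and other cells (squares) in each of the 17 sections. Other cells that were themselves endothelial marker cells are left out, while such member cells are kept. Member cells are above the other cells in every section, by the least in the female Control sections and with 89.7% to 97.9% near in the buccal sections.

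Keratinocyte marker cells, with at least 5 transcripts of Krt5, Krt15, Krt1, Krt17, Krt77 and Dsg3, were the other neighbours measured. In Control skin 14.6% to 25.1% of member cells lay within 25 µm of one, in PITX1+ skin 19.8% to 36.5%, and in buccal mucosa 0% to 20.1% with a median of 3.53%. The 0% is the third buccal section, which held no keratinocyte marker cell, so its value was fixed. Of the other cells, 26.8% to 31.5% were near in Control skin, 36.4% to 55.4% in PITX1+ skin and 0% to 26.9% in buccal mucosa. Those other cells exclude keratinocyte marker cells, while member cells that met that threshold were kept. Neither PITX1+ skin (8.17 percentage points higher, exact permutation p = 0.229, adjusted p = 0.294) nor buccal mucosa (difference -13.5 percentage points, exact p = 0.05, adjusted p = 0.1) passed an adjusted p of 0.05 against Control skin. At 50 µm the PITX1+ difference was -5.42 percentage points. Member cells also lay in groups. Chained at 25 µm, groups of 10 or more held 16.0% to 70.0% of buccal member cells, 0% to 4.00% of those in Control skin, 0% to 13.1% in PITX1+ skin and 13.3% to 19.1% in wounds, so the wounds overlapped the lowest buccal section. The largest group had 149 cells, in the seventh buccal section.

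Among member cells of the same section, those led by Myh11 and those led by Acta2 were compared as a description. This used the 10 unwounded male and buccal sections, which held 16 to 152 Myh11-led and 56 to 487 Acta2-led cells each. Levels in the Myh11-led cells of the smallest sections therefore rest on few transcripts. Pdgfrb was higher in the Acta2-led cells in 9 of the 10. The matrix proteins Tnc and Postn were higher in the Acta2-led cells in 9 of 10, with medians of 1982 against 626 CPM for Tnc and 6861 against 3154 for Postn. The 18 matrix genes were mixed, and Fn1, Lum and Tnxb were higher in the Myh11-led cells in 7 of 10. The endothelial genes Pecam1 and Cdh5 were higher in the Myh11-led cells in 9 of 10, by a median log2 ratio of 0.40 and 0.51. Des was higher in Myh11-led cells in 6 of 10, so no direction was shared.

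The first question on expression was whether PITX1 in keratinocytes went with other levels in member cells. Of 202 genes tested with slide as a covariate, 2 passed an adjusted p of 0.05, or 0.99% (edgeR quasi-likelihood test), and 28 had an unadjusted p under 0.05. Saa3, an acute-phase serum amyloid, was higher in PITX1+ skin, with a log2 fold change of 6.0 ± 1.21 (SE, edgeR adjusted p = 0.0294). It stood at 0 CPM in the male Control section and 56.6 and 108 in the male PITX1+ sections. On the female slide it was 0 and 106 CPM in Control skin and 9052 and 1921 in PITX1+ skin. The highest values were in the sections where no rise of Pitx1 was seen.

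Igfbp2, which binds insulin-like growth factors, was lower in PITX1+ skin, with a log2 fold change of -2.82 ± 0.57 (SE, edgeR adjusted p = 0.0294). It was 26033 and 20694 CPM in the female Control sections and 1906 and 2088 in the female PITX1+ sections. On the male slide it was 4721 CPM in the Control section and 3285 and 2300 in the PITX1+ sections. The fall differed between slides by -3.24 on the log2 scale (edgeR interaction test, adjusted p = 0.0162). It was larger on the female slide, where no rise of Pitx1 was seen. Without the first female Control section 0 genes passed in edgeR (24 at an unadjusted p under 0.05), nor without the first (24) or second (18) female PITX1+ section. There were 23 calls without the male Control section, 8 without the second male PITX1+ section, 1 without the second female Control section, and 8 by DESeq2.

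The fixed gene lists were otherwise without calls in this comparison. No gene of the smooth muscle cytoskeleton list (Des, Palld, Vim, Itga1) passed the test, with a median log2 fold change of -1.10 against -0.02 over all genes tested. The summed level of its 4 genes was 224595 to 255950 CPM in Control and 133350 to 152930 in PITX1+ member cells, with no overlap. In the other cells it was 66702 to 99043 CPM in Control and 33114 to 82707 in PITX1+ skin, which overlap. Summed levels in member cells also stood apart for the hair follicle mesenchyme list, at 4033 to 5845 CPM in Control and 6764 to 9528 in PITX1+ skin. The endothelial list, given below, stood apart too, and the ranges of all other lists overlapped. Vim alone was 120556 to 169964 CPM in Control and 91842 to 115147 in PITX1+ member cells. None of the 4 pericyte genes passed (median 0.30), nor any of the 4 PDGF, 6 TGF-beta, 3 Notch and 3 tested BMP genes, with medians of 0.27, -0.10, 0.24 and -0.11. Of 10 IGF genes 1 was lower, Igfbp2, against 0.99% called over all genes. All 6 endothelial genes were above Control in the fit, with a median of 0.77, and none passed. The summed level of these 6 in member cells was 11143 to 25180 CPM in Control skin and 25250 to 42168 in PITX1+ skin. Transcripts of a neighbour assigned to a member cell cannot be told apart from its own.

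A further test asked where the change from Control to PITX1+ skin differed between member cells and all other cells of the same sections. Of 325 genes 15 passed, or 4.62% (edgeR, section as a block), 6 higher and 9 lower in member cells. The median over all genes was 0.31, so values are to be read against it. Abcc9 had the pericyte list's only call, with a difference of 2.30 ± 0.50 (SE, log2, edgeR adjusted p = 0.00249). Its mean was 958 CPM in member cells of Control skin and 2285 in PITX1+ skin, while in other cells it was 1154 and 628. By section it was 674 CPM in the male Control and 1303 and 1879 in the male PITX1+ sections, and 1031 and 1167 in the female Control and 4288 and 1670 in the female PITX1+ sections. Without the first male or the first female PITX1+ section it missed the threshold (2.23, adjusted p = 0.0947, and 2.01, adjusted p = 0.0638). Ackr1, a chemokine receptor of venules, had a difference of 2.48 ± 0.51 (SE, edgeR adjusted p = 0.00212), with 613 and 2452 CPM in member cells and 855 and 571 in other cells. Krt15, a keratin of hair follicle stem cells, the cytokine Il34, the antioxidant enzyme Gpx3 and Igfbp3 were the other 4 that were higher, by 1.65 to 2.31. The call of Igfbp3 was lost in 6 of the 7 fits that left out 1 section. Over 16 alternatives the call of Krt15 was lost in 10, that of Il34 in 8 and those of Abcc9, Ackr1 and Gpx3 in 5 each.

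On the lower side, Igfbp2 again differed, by -3.49 ± 0.46 (SE, edgeR adjusted p = 1.9e-06). Its mean was 17150 CPM in member cells of Control skin, where the female sections stood far above the male one, and 2395 in PITX1+ skin. In the other cells the means were 2397 and 3108 CPM. Gja1, a gap junction protein, had a difference of -2.10 (adjusted p = 0.00212), with means of 4397 and 7041 CPM in member cells and 2685 and 14494 in other cells. The growth factor receptor Fgfr2, with -2.12, was 6648 and 2420 CPM in member cells. The cystatin gene Cstdc5, the cornified envelope gene Sprr2a3, the fatty acid binding protein Fabp5, Lrrc15, Lama5 and Lbh were the other 6 and ranged from -4.39 to -1.40. Lbh was named after its values were seen. Over 16 alternatives the call of Lama5 was lost in 13, that of Sprr2a3 in 11, that of Fabp5 in 9, that of Cstdc5 in 6, those of Gja1 and Fgfr2 in 5 each and that of Igfbp2 in 0. Lrrc15, a membrane protein of activated fibroblasts, stood at 2023 CPM in the male Control section and at 0 in both female ones, and without the male Control section its difference was 7.36. The calls numbered 30 without the male Control section, 1 and 10 without the first and second male PITX1+ section, and 6 and 4 without the first and second female one, and they split 10 higher to 8 lower with library size in place of TMM scaling and 2 to 10 without cells of mixed content.

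Buccal mucosa differed from Control skin in more genes. Of 156 genes tested, 40 passed, or 25.6% (edgeR quasi-likelihood test, 7 against 3 sections), with 19 higher and 21 lower in buccal member cells. Tissue and slide cannot be told apart in this comparison. The Control sections came from both the male and the female skin slide. Neither this fit nor the one against other cells below adjusted member cells for the gap between those slides. Scaled by library size the calls were 25 higher and 17 lower, and by DESeq2 47 and 23. The calls fell to 15 without the first and 18 without the second female Control section, and numbered 71 without the male Control section. Igf2, a growth factor of development, was 849 to 4272 CPM in the 3 Control sections and 11384 to 36914 in the 7 buccal sections, median 21542. The groups did not overlap, and the log2 fold change was 2.94 ± 0.52 (SE, edgeR adjusted p = 0.00131). Timp3, an inhibitor of matrix-degrading enzymes, was 4210, 4988 and 12815 CPM in Control skin and 21904 to 56500 in buccal mucosa, median 45336, for a log2 fold change of 2.45 ± 0.39 (SE, edgeR adjusted p = 0.00122). Igfbp3 rose with them, by 2.37 ± 0.56 (SE).

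Endothelial genes were also higher in buccal member cells. Of 6 on the list, 4 passed, all upward, against 25.6% called over all genes: Adgrl4 by 3.75, Pecam1 by 2.23, Flt1 by 1.53 and Vwf by 1.51 on the log2 scale, and the list's median was 1.52 against 0.18 over all genes tested. The summed level of the 6 genes ran from 24799 to 71806 CPM in buccal and from 11143 to 25180 in Control member cells, and Adgrl4 was at 0 in the male Control section. When member cells with 3 or more endothelial or keratinocyte marker transcripts were left out, a filter that uses Pecam1 itself, Pecam1 missed the threshold (log2 fold change 1.32, edgeR adjusted p = 0.0841) while Igf2 (2.41) and Timp3 (2.14) still passed. Among member cells near endothelium alone, a split chosen after seeing the data, 3 genes passed, Col1a1, Igf2 and Timp3.

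Krt4, a keratin of the oral epithelium, was at 0 in the 3 Control sections, on 25510 transcripts in all, and at 567 to 2492 CPM in the 7 buccal sections. Its mean of 1354 CPM was at least 11.5-fold higher than the level of 3 counts over the Control group (edgeR adjusted p = 0.00147). The transcription factor Cebpg and the collagen Col14a1 completed the 8 largest rises, by 3.55 and 2.10 on the log2 scale. Cebpg reached 8596 CPM in the sixth buccal section, and without that section its log2 fold change was 2.92.

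On the lower side, Col1a1, the main collagen of dermis, was 49236, 65212 and 205667 CPM in Control member cells and 3407 to 8804 in buccal ones, median 7062, a log2 fold change of -4.45 ± 0.45 (SE, edgeR adjusted p = 4.16e-05). Igfbp2 differed by -4.38, the stress gene Atf3 by -3.77, the fatty acid elongase Elovl6 by -3.44 and the cell cycle gene Top2a by -3.28. The opioid precursor Penk, the integrin Itgb3 and the chemokine Ccl8 differed by -3.10, -2.74 and -2.59. The call of Ccl8 was lost in 12 of 16 alternatives. In member cells near endothelium the value of Itgb3 was 0.07.

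By list, the matrix genes went both ways. Of 16 tested, Timp3 and Col14a1 were higher, and Col1a1, Fn1 and Mmp14 lower, against 25.6% called over all genes. The list median was -0.70, and the call of Col14a1 was lost in 7 of 20 alternatives. The myofibroblast list had 3 lower genes of 6 tested, Col1a1, Fn1 and Tgfbi, and none higher, against the same 25.6%. Col1a1 and Fn1 are also on the matrix list. In the test against other cells described below, the myofibroblast median was 0.45 against -0.05 over all genes, with Postn higher and none lower. Of the smooth muscle cytoskeleton genes only Des passed, at 40692, 107927 and 115646 CPM in Control skin and 7431 to 58900 in buccal mucosa, a log2 fold change of -1.64 ± 0.49 (SE, edgeR adjusted p = 0.0268). In 5 of the 7 buccal sections Des was below every Control section, and in the other 2, at 51500 and 58900 CPM, it exceeded the male Control section. No pericyte gene passed (median 0.63), and of the BMP genes only the receptor Bmpr2 did, upward by 1.07. Of 6 immune genes tested 4 were lower (C1qa, Cd74, Csf1r and Mrc1), against 25.6% called over all genes, while Lyz2 (-0.94) and Ctss (-1.16) did not pass. Of 6 immediate early genes tested, Klf4 was higher by 1.79 and Atf3 lower.

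**Figure D4:**
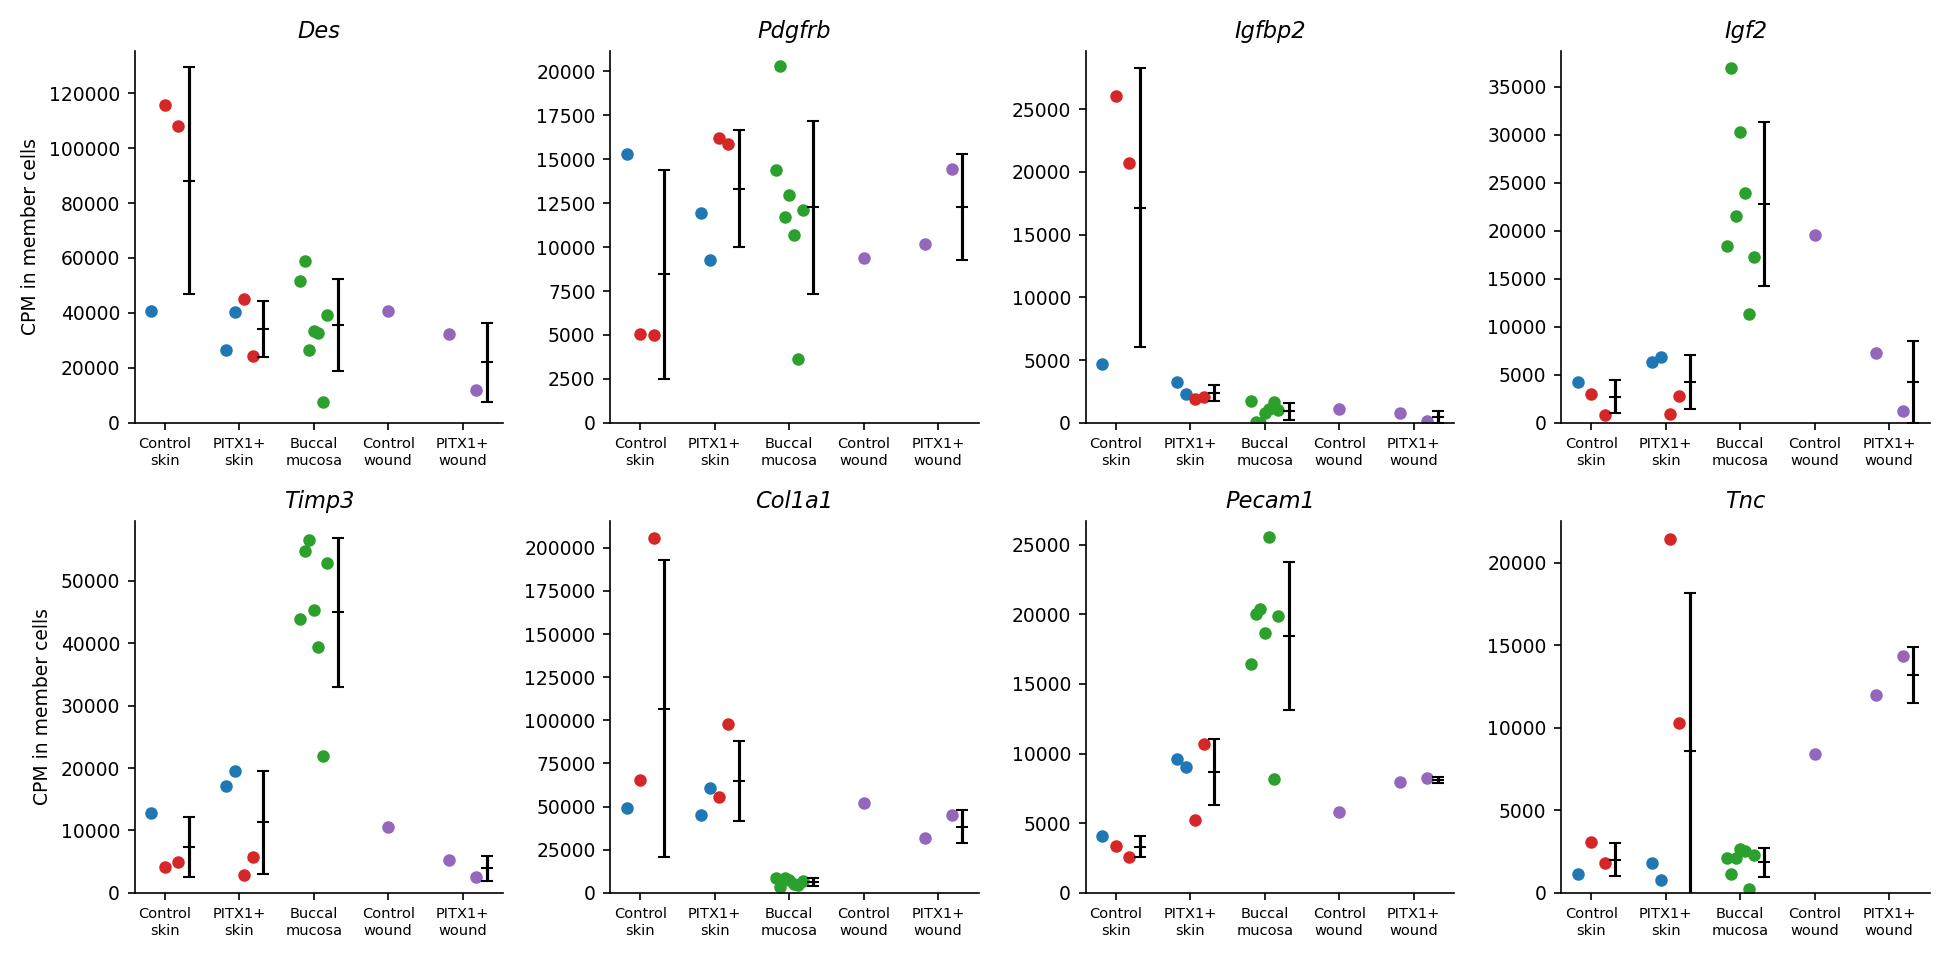
CPM of 8 genes in member cells by group. Each point is 1 section, blue for the male, red for the female, green for the buccal and purple for the wounded male slide, and black bars give mean ± SD for groups with more than 1 section. Igf2 and Timp3 are highest in buccal sections, Igfbp2 in the female Control sections, and Tnc in wounds and the female PITX1+ sections. Igf2 in the Control wound, at 19585 CPM, lies within the buccal range.

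The sixth buccal section held a different mixture. Its 574 member cells had 25081 CPM of Krt8 and 51910 of Krt18, the paired keratins of simple and glandular epithelium, while in the other 6 buccal sections Krt18 was 0 to 424 CPM and Krt8 0 to 72.0. Pdgfrb was 3636 CPM there against 10663 to 20282 in the other 6, and Des 7431 against 26644 to 58900. Cnn1 was highest, at 1.81 transcripts per member cell, and 93 transcripts of Pitx1 were counted in its member cells against 0 to 2 in each of the others. Without this section 67 genes passed in buccal mucosa against Control skin, 36 higher and 31 lower. Whether these cells are myoepithelial was not tested.

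The change from Control skin to buccal mucosa was also set against that in other cells. Of 323 genes, 44 passed, or 13.6% (edgeR, section as a block), 12 higher and 32 lower in member cells. The calls numbered 10 and 20 without the first and second female Control section, and 27 without the fifth buccal section, and they split 4 higher to 30 lower without cells of mixed content. Igfbp3 differed by 3.39 ± 0.47 (SE, log2, edgeR adjusted p = 0.000232). It was 2097 CPM in Control and 13252 in buccal member cells, and 7561 and 3050 in the other cells. Pdgfrb differed by 1.36, at 8448 and 12258 CPM in member cells and 3565 and 1623 in other cells, and Timp3 by 1.35. No gene of the 6 endothelial (median 0.64) or 9 immune genes (median 0.01) passed in this test, against a median of -0.05 over all genes. Col1a1 and Igf2, called between the tissues above, did not pass in it either. Des differed by -1.83 ± 0.45 (SE, edgeR adjusted p = 0.014). It was 88088 and 35692 CPM in member cells but 47285 and 51657 in other cells.

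The other large differences upward were Clca3a2, a chloride channel regulator, by 4.40, and the matrix protein Postn by 2.83, with the chemokines Ccl27a and Cxcl16, the laminin Lama3, the ligand Bmp2 and the integrin Itgb4 between 1.70 and 2.82. Over 19 alternatives the call of Ccl27a was lost in 12, that of Bmp2 in 11 and that of Lama3 in 10. Those downward were Il1f6, Sprr1b, Gsdmc, Dlx3, Mt3, Cstdc5, Chil3 and Tgm3, from -8.06 to -5.73. None of these 8 exceeded 954 CPM in the member cells of any Control or buccal section. In the other cells Sprr1b, for example, was 91.6 CPM in Control skin and 6584 in buccal mucosa. With a rule share of 20% its difference was 2.08.

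In wounds, member cells were compared with those of unwounded male skin, with condition as a covariate. Of 260 genes 51 passed, or 19.6% (edgeR quasi-likelihood test, 3 against 3 sections), with 33 higher and 18 lower in wounds. Slide and wounding cannot be told apart. With a rule share of at least 20% of a cell's transcripts 0 genes passed in edgeR (15 at an unadjusted p under 0.05), and without the condition covariate 12. The calls numbered 12 and 24 without the first and second PITX1+ wound, and 32 and 16 without the first and second unwounded PITX1+ section. Tnc, a matrix protein of healing tissue, was 1124, 1812 and 771 CPM in the unwounded sections and 8441, 11981 and 14374 in the wounds, a log2 fold change of 3.23 ± 0.39 (SE, edgeR adjusted p = 0.00192). Thbs2, a matricellular protein, rose from 1501 to 1963 CPM to 5199 to 6472, and Timp1 from 0 to 510 CPM to 1105 to 3078. Tgfbi was higher by 1.44 and the follicle mesenchyme gene Crabp1 by 3.71 on the log2 scale.

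Of 10 IGF genes 4 were lower and none higher, and 6 of 18 matrix and 4 of 8 myofibroblast genes passed in either direction, against 19.6% called over all genes. Igfbp4 was 12140, 16141 and 13138 CPM in unwounded sections and 5713, 4034 and 2917 in wounds, and differed by -1.86 ± 0.27 (SE, edgeR adjusted p = 0.00486). Igfbp2 differed by -2.59 and lost its call in 4 of the 6 fits that left out 1 section, Igfbp6 by -1.80 and Igfbp5 by -1.31. Of the matrix genes, Tnc, Thbs2 and Timp1 were higher and Timp3, Tnxb and Lama5 lower, of 18 tested. In the myofibroblast list, Tnc, Tgfbi and Timp1 were higher and Cdh11 lower, while Col1a1 had a log2 fold change of -0.36 and did not pass. No smooth muscle cytoskeleton, pericyte, PDGF, BMP, Notch or immediate early gene passed. Their medians were -0.38, -0.17, -0.15, -0.63, -0.45 and -0.76, against 0.08 over all genes.

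The largest rises in wounds were in genes better known from other cells. Sprr1b, Sprr2d and Sprr2a3 of the cornified envelope rose by 6.99, 5.90 and 5.13 on the log2 scale, Cstdc5 by 6.64, Saa3 by 5.36, the phosphoprotein Spp1 by 6.01 and the neutrophil chemokine Cxcl5 by 5.35. Stfa3, an inhibitor of cathepsins, was at 0 in the 3 unwounded sections and averaged 296 CPM in wounds, at least 12.1-fold above 3 counts over the unwounded group (edgeR adjusted p = 0.0224). Keratinocyte marker cells made up 10.7% to 18% of member cells in wounds and 0.971% to 14.7% in unwounded male skin. Without member cells that held 3 or more keratinocyte or endothelial marker transcripts, 56 genes passed, 27 of them among the 51. Saa3 (6.19), Spp1 (7.03) and Cxcl5 (8.76) still passed there, and the Sprr genes, Cstdc5 and Stfa3 were too low to be tested. That filter used no marker of macrophages, neutrophils or fibroblasts. Transcripts from such neighbours could remain, which was not tested.

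The largest falls in wounds were Retnla, a product of macrophages, and the cornified envelope gene Lor, with log2 fold changes of -6.23 and -4.8. Penk was 3822, 3795 and 2083 CPM in unwounded sections and 752, 296 and 198 in wounds, a log2 fold change of -3.26 ± 0.46 (SE, edgeR adjusted p = 0.00473). The fibroblast transporter Abca8a differed by -2.78, the mast cell protease Mcpt4 by -2.61, the lymphatic receptor Lyve1 by -2.44 and Fgfr2 by -2.10. The call of Mcpt4 was lost in 9 of 16 alternatives and that of Lyve1 in 7 of 13.

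**Figure D5:**
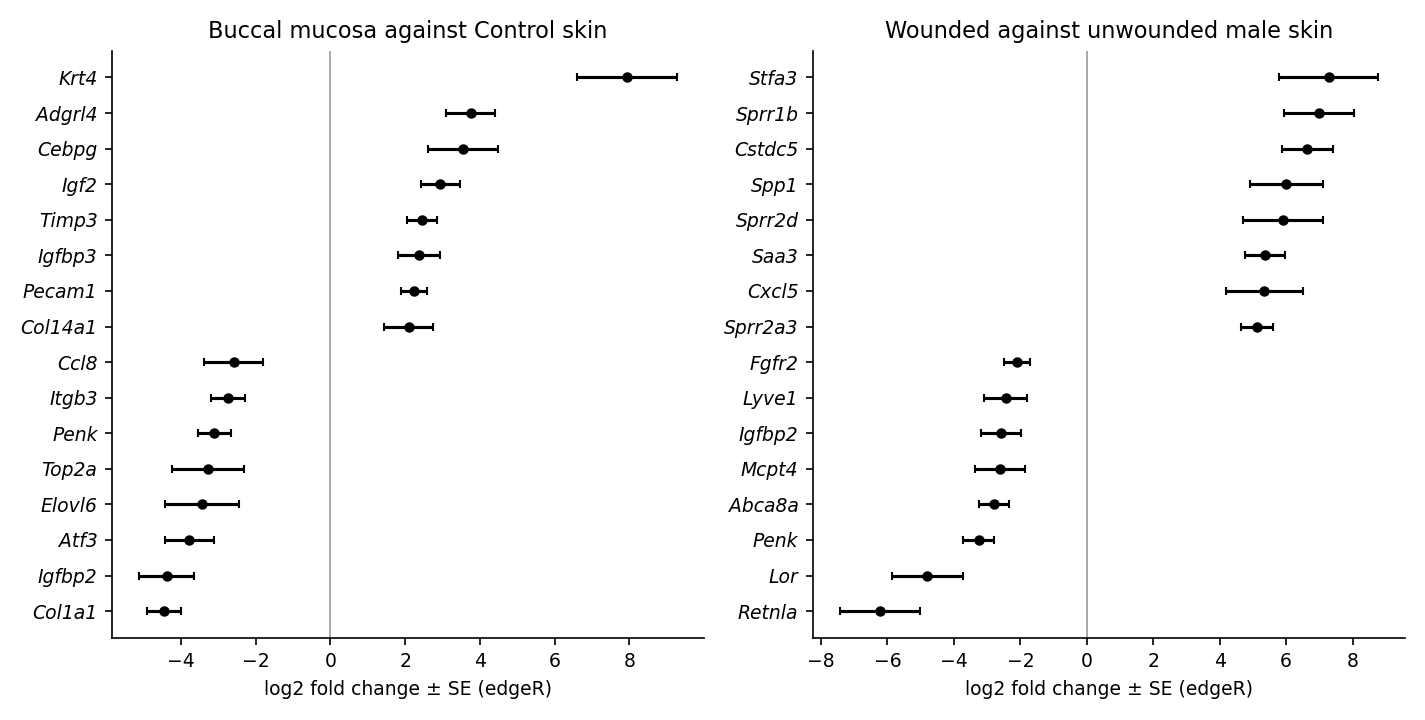
Log2 fold changes ± SE (edgeR) of the 8 largest changes in each direction past an adjusted p of 0.05, for buccal mucosa against Control skin (left) and wounded against unwounded male skin (right). Values run from -4.45 (Col1a1) to 7.93 (Krt4) on the left, and from -6.23 (Retnla) to 7.27 (Stfa3) on the right. Krt4 and Stfa3 are bounded rather than measured, since they were at 0 in one group.

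Position within the tissue was tested last, over the 14 unwounded sections with section as a block. Between member cells near and far from endothelial marker cells, 3 of 171 genes passed, or 1.75% (edgeR). Vwf, one of the genes that defined the neighbours, was higher near them by 1.5 ± 0.24 (SE, log2, edgeR adjusted p = 6.08e-05). Fgfr2 and Gja1 were lower, with log2 differences of -2.47 and -1.35. The call of Gja1 was lost in 7 of 21 alternatives, and those of Vwf and Fgfr2 in 0. The buccal sections had only 4 to 28 far member cells each. By library size 9 genes were higher and 4 lower, and by DESeq2, which also changes the test, 36 and 1. Leaving out 1 section gave 2 to 36 calls, the most without the second female Control section. The pericyte genes had a median log2 difference of 0.53 and none passed.

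Near keratinocyte marker cells 59 of 235 genes passed, or 25.1% (edgeR), in the 13 sections with such member cells, 38 higher and 21 lower. The division was 41 higher and 16 lower by library size, 18 and 71 by DESeq2, which also changes the test, and 31 and 72 without the first female PITX1+ section. Of 8 keratinocyte genes tested 7 were higher near these cells, with Krt15 first by 4.8 ± 0.70 (SE, edgeR adjusted p = 2.69e-05), followed by Col17a1, Krt79, Krt5 and the follicle stem cell gene Lgr5 between 3.30 and 3.53. Several of these defined the neighbours. Lower near keratinocytes were Retnla (-2.89), Igf2 (-2.12), Mcpt4 (-1.94), Abca8a (-1.40) and Bmp2 (-1.38, all log2). Among list genes Des differed by -1.09, Tgfb3 by -1.10 and Igfbp5 by -1.15, and 3 of 6 endothelial genes were lower, while Postn and Igfbp2 were higher by 1.00 and 1.20.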

How the data were processed

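Formalin-fixed mouse tissue was profiled on 4 Xenium slides with 328 gene probes. The authors deposited transcript positions with a Phred-like quality score, and counts per cell. Software versions and segmentation settings are not given in the sources used here. Recounting the gene transcripts at quality 20 or better gave the deposited counts in 100% of cells, and 98.1% to 99.1% of them were inside cells.

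Cells with at least 10 transcripts were chained into sections at 100 µm (wounds 200 µm, at least 2000 cells), and 394 cells fell outside. Conditions followed the order of sections on each slide. The cell totals of the 14 unwounded sections each lay nearest to a section total of the same condition listed with the study. The wounded sections were matched by order alone.

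Counts were summed over member cells per section (2099 to 83045 transcripts without the rule genes) and tested with edgeR 4.0.16 (filterByExpr, TMM, quasi-likelihood, Benjamini-Hochberg) without the rule genes. Shares and densities, over 50 µm squares that held a cell, were tested by exact permutation over sections. The study's counts of Control skins, PITX1+ mice and buccal mucosae equal the numbers of unwounded sections, but the labels tie no section to a mouse, and p-values measure the spread between sections. DESeq2 1.42.0, other thresholds and leaving out each section were alternatives, and the fits were tested on simulated data. Genes named were the 8 largest called changes in each direction (5 by position) and genes of fixed lists. The members and lists were chosen with earlier results of these data known.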

Additional observations from a re-analysis of the deposited data

Results flagged for a closer look

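Of 28 groups of sections checked for a single far value, 6 had one, and chance gives about 1 in 20. In the sixth buccal section the share of member cells was 9.60%, next to 4.47%, and their density 553 per mm², next to 217. Cebpg stood at 8596 CPM in that section, next to 3590. Atf3 was 432 CPM in the fifth buccal section, next to 189. Elovl6 was 2834 CPM in the third, next to 706, and Ccl8 was 1689 CPM in the first, next to 378. The sections behind these values had 5292 to 56656 transcripts of member cells.

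The change of Igfbp2 from Control to PITX1+ skin differed between the female and the male slide by -3.24 on the log2 scale (edgeR interaction test, adjusted p = 0.0162). Of 242 genes in that test 4 passed. Sex and slide cannot be told apart.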

How the results depend on the processing

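Between conditions, tissues and wounds, no paired analysis was possible because the labels give sections no replicate numbers. Position, and member against other cells, were compared within sections. Slide was a covariate in the fit of PITX1+ against Control skin. Alternatives split by nearness to endothelium were added after seeing the data. For PITX1+ against Control skin, the 2 calls became 8 with DESeq2, 5 with all panel genes, 1 with at least 3 rule transcripts, 5 among member cells far from endothelium, and 0 with nuclear transcripts only, at least 10 rule transcripts, a rule share of 20%, no slide covariate, or near cells only (edgeR, 10 to 19 at an unadjusted p under 0.05). For buccal mucosa, the 40 calls became 70 with DESeq2, 65 without a gene filter, 3 near and 26 far from endothelium. For wounds, the 51 became 32 with at least 10 rule transcripts, 12 without the condition covariate, 23 far from endothelium, and 0 with a rule share of 20% (15 at an unadjusted p under 0.05). Against other cells, the 15 calls for PITX1+ skin became 9 with DESeq2, 6 at 3 rule transcripts, and 2 at 10 or with a share of 20%, and the 44 for buccal mucosa became 18 at 10. Near endothelium, the 3 became 13 by library size, 37 with DESeq2, 45 without a filter, 19 with all panel genes, 27 at 15 µm, 16 at 50 µm and 6 with nuclear transcripts. Near keratinocytes, the 59 became 89 with DESeq2, 102 with all panel genes, 103 at 15 µm, 39 at 50 µm and 25 with nuclear transcripts. With a rule share of 20% the buccal difference in share was -0.11 percentage points, that in density 23.1 cells per mm² (exact p = 0.367), and the PITX1+ density difference -19.8. The latter was -0.36 with 10 rule transcripts and -7.43 after thinning, where the buccal one was 46.7. At 50 µm the PITX1+ difference near keratinocytes was -5.42. Itgb3 near endothelium in buccal mucosa was 0.071, Fgfr2 in wounds at a rule share of 20% 0.018, Lrrc15 7.79 at 10 rule transcripts, 6.89 at a share of 20% and -4.02 to 7.36 when a section was left out, the latter without the male Control section, and Sprr1b 2.08 at a share of 20%. The cause was not tested.

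Leaving out each section in turn, calls ran from 0 to 23 for PITX1+ skin, 15 to 71 for buccal mucosa, 12 to 42 for wounds, 1 to 30 and 10 to 61 against other cells, 2 to 36 near endothelium and 51 to 103 near keratinocytes. Differences in share ran from -1.19 to -0.42 (PITX1+) and 1.21 to 2.47 percentage points (buccal), in density from -15.8 to 14.2 and 86.0 to 165, near endothelium from 32.5 to 47.9 and 67.1 to 82.5, near keratinocytes from 5.32 to 10.9 and -16.1 to -10.8, and member against other cells from 29.3 to 32.8. Scaling by library size moved the median log2 fold change of all genes from -0.02 to 0.37 in PITX1+ skin and from 0.18 to 0.37 in buccal mucosa. Member cells of the smallest section held 2099 transcripts, which limits genes of low level there.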
